A study of Oncorhynchus mykiss with 27 samples.

Results

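The genes described here are those of the rainbow trout (*Oncorhynchus mykiss*) testis that the study annotated as a chain of the major histocompatibility complex (MHC). Among the clones it named, 4 carried such a description, out of 9024 cDNA clones spotted on the nylon membranes. They are a first and a second clone of *onmy-uba* (1rt100a14_c_a07 and tcah0001.p.03), both described as an MHC class I heavy chain, a clone of *onmydab* (tcaa0002.h.11), described as an MHC class II beta chain, and a clone described as an MHC class II alpha chain without a gene symbol (tcac0002.e.17). The study named its clones because they differed between Fsh and control explants, or between Fsh+Tri and Tri explants, on these same arrays, and it placed all 4 MHC clones in a single cluster (cluster 5). The clones were thus selected on the values of those 2 Fsh comparisons, which are given below as a description, with no test.

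Testes of an all-male trout population at early stages of spermatogenesis were cut into small pieces, pooled, mixed and distributed over culture wells. All cultured explants were kept for 96 h in the same L15 medium with a serum substitute (Ultroser SF), with nothing added (Ctrl), with purified trout Fsh, the follicle-stimulating hormone of the pituitary, at 500 ng/mL (Fsh), with 10 µg/mL of trilostane (Tri), or with Fsh and trilostane together at these doses, trilostane being given before Fsh (Fsh+Tri). Trilostane inhibits 3 beta-hydroxysteroid dehydrogenase, the enzyme that converts precursors into androgens and other steroids. Each treatment had 6 arrays, and 3 further arrays (T0) held uncultured testis at 0 h. The wells were filled from a pool of fish, so p-values measure the spread between wells and not between animals. These are measurements of whole tissue, in which fewer cells of a type and less RNA per cell cannot be told apart.

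MHC molecules present peptides to T lymphocytes. Class I molecules, made of a heavy chain and beta-2-microglobulin, are carried by nearly all nucleated cells and show peptides that the proteasome has cut inside the cell. Class II molecules are pairs of an alpha and a beta chain, are found mainly on macrophages, dendritic cells and B cells, and show peptides that lysosomal proteases such as cathepsins have cut from material taken up from outside. The testis of vertebrates holds resident macrophages between the tubules, and is known as an organ where immune reactions are restrained.

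Expression is given as the deposited normalized log2 value, where a difference of 1 is a doubling. The median over the clones and cultured arrays was 6.40 on this scale. Levels of different clones are not compared, since each clone has its own cDNA on the membrane. Arrays held between 8310 and 9133 values, with median spot intensities from 49.0 to 138.5. Markers of Sertoli cells (*amh*, *dmrt1*, *cldn11a* and *inha*), the somatic cells that nurse the germ cells, had a mean log2 level of 9.89 to 9.98 in the 3 T0 arrays. These markers of the labelled tissue thus gave a signal, which does not measure their abundance against other clones. All 4 MHC clones had a value on all 24 cultured arrays and passed the filter on low values. The class II alpha chain passed with 2 treatments at or above the median, the second *onmy-uba* clone with 3, and the other 2 clones with 4. For the alpha chain these were Tri (mean 7.10) and, narrowly, Ctrl (6.44), while its means in Fsh (5.49) and Fsh+Tri (6.36) lay below the median. Control replicate 4 was the lowest Ctrl array for 3 of the 4 MHC clones, as described below, so results that lean on it are given with and without it. The labels also give each array a maturity stage. All 6 Ctrl arrays were stage I-II (mostly A-spermatogonia), against 3 of 6 Fsh, 4 of 6 Tri, 2 of 6 Fsh+Tri and 1 of 3 T0 arrays, the rest being stage III, although the methods describe both stages in each well.

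In the cultured explants, the mean level of each of the 4 MHC clones was highest with trilostane alone, followed by Ctrl and Fsh+Tri, and lowest with Fsh alone. Both class I clones and both class II chains thus shared an order of treatments. This order contains the comparisons by which the clones were named.

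The first *onmy-uba* clone, a class I heavy chain, ranged from 7.07 through a median of 8.28 to 8.71 in Ctrl, and from 7.17 through 7.43 to 8.16 in Fsh. With trilostane alone it ranged from 8.34 through 8.65 to 8.90, and with Fsh+Tri from 7.74 through 8.08 to 8.50. Every Tri array lay above every Fsh array, whereas Ctrl and Fsh+Tri overlapped with both. The lowest Ctrl array, replicate 4, stood well below the other 5, which lay between 8.20 and 8.71. The 3 T0 arrays had values of 8.51, 8.65 and 7.91. In order of the means the groups were Tri (8.63 ± 0.20, SD), T0 (8.36 ± 0.39), Ctrl (8.16 ± 0.56), Fsh+Tri (8.11 ± 0.27) and Fsh (7.53 ± 0.39), and each neighbouring pair in this order overlapped.

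The second *onmy-uba* clone, annotated to the same heavy chain, ranged from 6.94 through 7.08 to 7.64 in Ctrl and from 5.98 through 6.53 to 6.73 in Fsh. These ranges did not touch, a separation of Fsh below Ctrl that 0.394% of all clones tested had. Its values ran from 6.79 through 7.53 to 7.69 in Tri and from 6.72 through 7.03 to 7.49 in Fsh+Tri. The means were 7.38 ± 0.35 in Tri, 7.19 ± 0.26 in Ctrl, 7.09 ± 0.28 in Fsh+Tri and 6.41 ± 0.33 in Fsh. Unlike the first clone, it was low in the uncultured testis, with values of 6.75, 5.98 and 6.74 at T0 (6.49 ± 0.45). At T0 it was below all Ctrl and all Tri arrays (the share of all clones with these separations was not counted). Of the neighbours in the order of its means, Ctrl overlapped with Tri and with Fsh+Tri, and T0 with both Fsh+Tri and Fsh.

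The *onmydab* clone, a class II beta chain, ranged from 8.44 through 9.25 to 9.82 in Ctrl, from 8.17 through 8.65 to 8.80 in Fsh, from 9.23 through 9.59 to 9.86 in Tri and from 8.74 through 8.92 to 9.44 in Fsh+Tri. Here too replicate 4 was the lowest Ctrl array, and all Fsh arrays lay below all Tri arrays. The uncultured testis had the highest mean of the 5 groups, with 9.95, 9.73 and 9.36 (9.68 ± 0.30). Tri followed with 9.54 ± 0.25, then Ctrl with 9.21 ± 0.49, Fsh+Tri with 8.96 ± 0.26 and Fsh with 8.58 ± 0.22. Fsh arrays were all below T0 arrays (the share of all clones with this separation was not counted), while each neighbouring pair in the order overlapped.

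The class II alpha chain clone had the clearest separation between treatments. Its values ran from 5.32 through 5.45 to 5.73 in Fsh, from 5.89 through 6.39 to 6.67 in Fsh+Tri and from 6.90 through 7.09 to 7.35 in Tri, so that these 3 treatments did not overlap. Fsh lay wholly below Fsh+Tri in 1.4% of all clones tested, and Fsh+Tri wholly below Tri in 0.548%. The Ctrl arrays were spread over nearly the whole of this span. Of these, replicate 4 had 5.11 and replicate 1 had 5.85, whereas the other 4 lay between 6.78 and 7.27. The T0 arrays had 6.93, 6.93 and 6.70. The means were 7.10 ± 0.16 in Tri, 6.86 ± 0.13 in T0, 6.44 ± 0.80 in Ctrl, 6.36 ± 0.32 in Fsh+Tri and 5.49 ± 0.14 in Fsh, and in this order only Fsh+Tri and Fsh had neighbouring ranges apart. For all 4 MHC clones, Fsh arrays lay wholly below Tri arrays, which held for 1.42% of all clones tested. This separation, like those of Fsh from Ctrl and of Fsh+Tri from Tri, contains the Fsh differences by which the clones were selected.

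**Figure D1:**
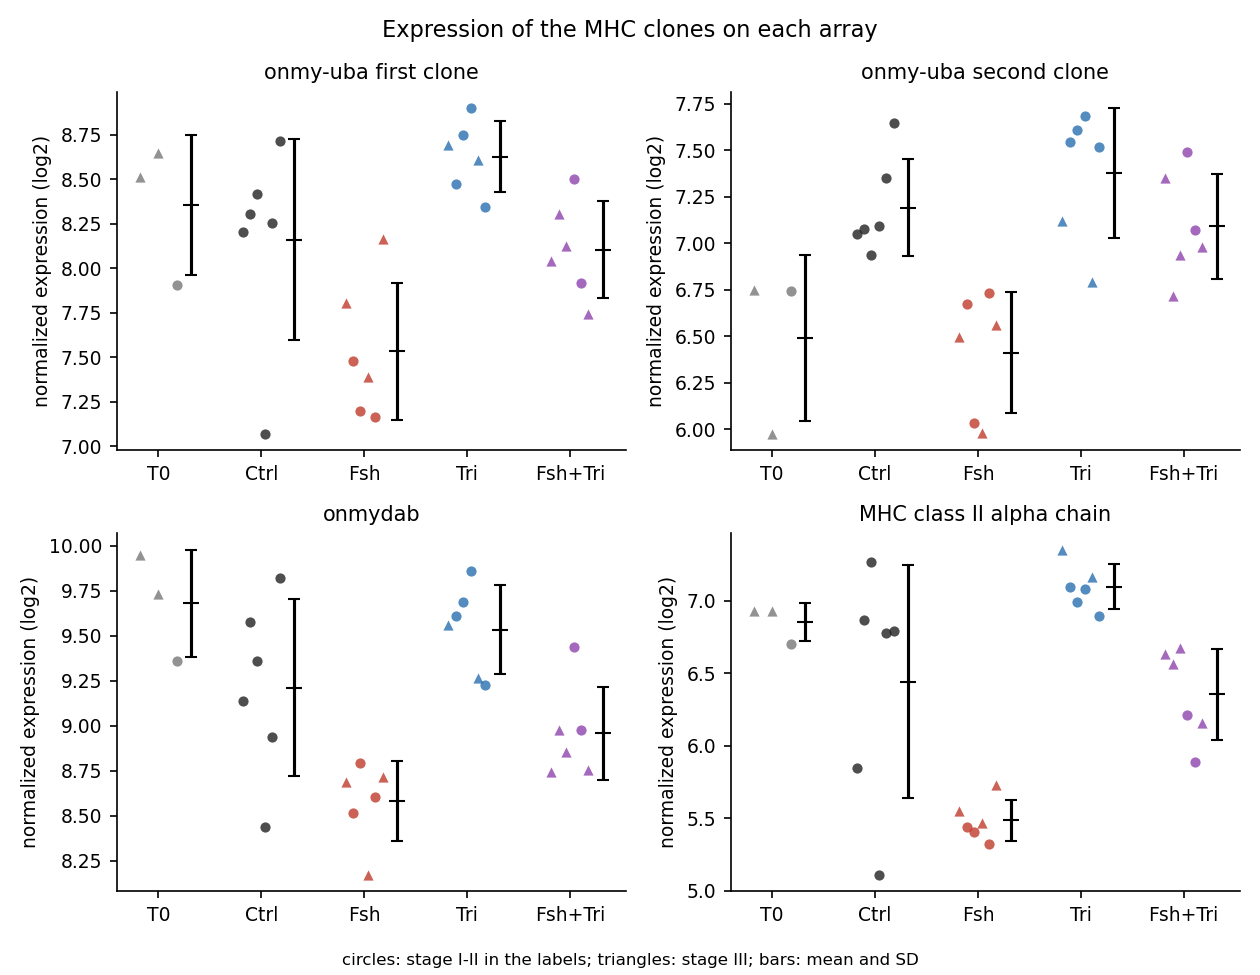
Normalized expression (log2, vertical axis) of the 4 MHC clones on each array, by group, with 6 arrays per treatment and 3 for T0. Circles are stage I-II and triangles stage III arrays, and the bars give the mean and SD of each group. In each panel the Fsh arrays lie below the Tri arrays, and the lowest Ctrl array of the first *onmy-uba* clone (7.07), of *onmydab* (8.44) and of the class II alpha chain (5.11) is replicate 4.

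The response to Fsh is described next, since it is what the clones were named by. Between Ctrl and Fsh the mean of the class II alpha chain fell by 0.96 (SE 0.23), that of the second *onmy-uba* clone by 0.78 (SE 0.17), and those of the first clone and of *onmydab* by 0.63 each (SE 0.20 and 0.18). The first clone, with the smallest of these, was 1.54-fold lower, and the alpha chain 1.94-fold lower. In the presence of trilostane, Fsh+Tri was below Tri by 0.74 (SE 0.23) for the alpha chain, 0.58 (SE 0.18) for *onmydab*, 0.52 (SE 0.20) for the first clone and 0.29 (SE 0.17) for the second.

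The Fsh differences with and without trilostane were thus of similar size for *onmydab*, where they differed by 0.05 (SE 0.25), and for the first *onmy-uba* clone, by 0.11 (SE 0.29). They differed by 0.21 (SE 0.33) for the alpha chain and by 0.49 (SE 0.24) for the second *onmy-uba* clone, in each case with the smaller drop in the presence of trilostane. Without Ctrl replicate 4 the drop from Ctrl to Fsh was 1.22 for the alpha chain, 0.85 for the first clone and 0.79 for *onmydab*, and the difference between the Fsh responses became 0.48, 0.32 and 0.21. For these 3 clones the size of the difference between the responses therefore rests on that array. The second clone changed little without it (a drop of 0.80 and a difference of 0.51).

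Read the other way, Tri was above Ctrl by 0.66 for the alpha chain, 0.47 for the first *onmy-uba* clone, 0.32 for *onmydab* and 0.19 for the second *onmy-uba* clone. Under Fsh the corresponding increments, from Fsh to Fsh+Tri, were 0.87, 0.57, 0.38 and 0.68. All are descriptions, since they share arrays with the comparisons that named the clones.

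**Figure D2:**
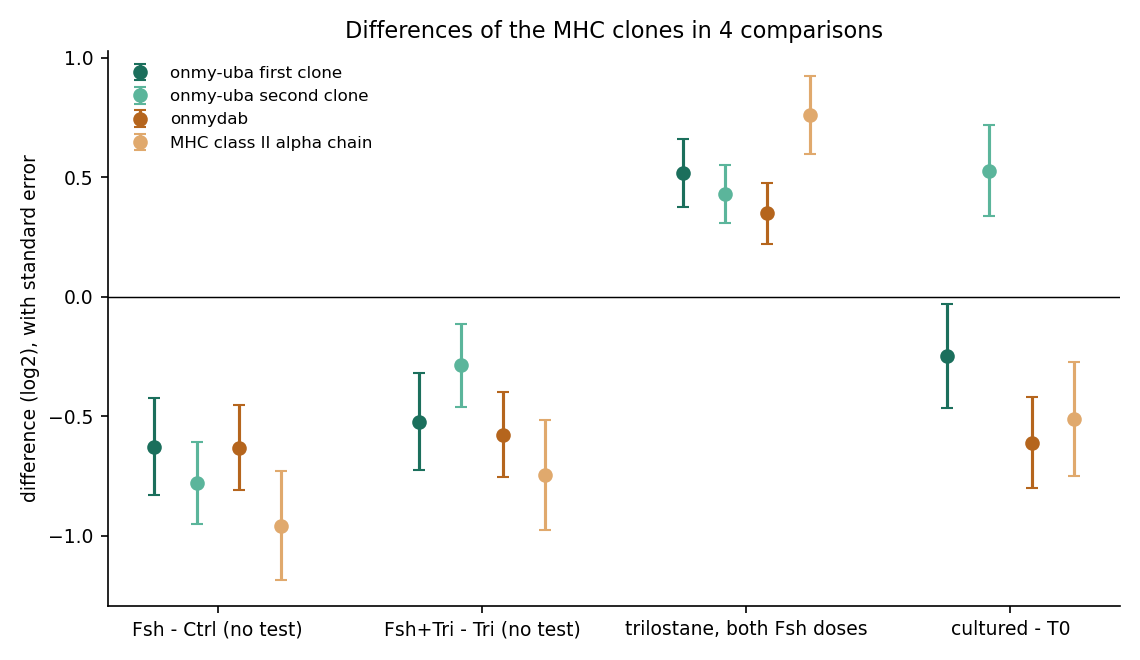
Differences in log2 expression (vertical axis, points with SE bars) of the 4 MHC clones in 4 comparisons. The left pair, Fsh against Ctrl and Fsh+Tri against Tri, named the clones and carries no test. All 4 clones lie below 0 in both and above 0 for trilostane, whereas in culture the second *onmy-uba* clone lies above 0 (0.53) and the other 3 below.

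Whether trilostane itself moved MHC expression was tested by the mean of both trilostane treatments minus the mean of both treatments without it. This contrast is orthogonal to the 2 Fsh comparisons, although it is built from the same 24 arrays and shares their residual spread. The study made its calls with a multi-class limma test on these arrays. Whether trilostane differences also entered that selection cannot be told, so the p-values of this contrast may not be free of it. The class II alpha chain was higher with trilostane by 0.76 (SE 0.16), or 1.70-fold (limma, adjusted p = 0.00511 over all clones). It was the only MHC clone of 4 to pass, where 1.42% of all clones tested were called higher and 0.35% lower. The first *onmy-uba* clone had a difference of 0.52 (SE 0.14, limma adjusted p = 0.0553) and the second 0.43 (SE 0.12, limma adjusted p = 0.0640), both just short of the threshold of 0.05. For *onmydab* the difference was 0.35 (SE 0.13, limma adjusted p = 0.227).

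All 4 differences were positive, with a median of 0.48, while the median over all 4565 clones tested was 0.00. Of those clones 21 had a larger difference than the alpha chain, 52 than the first *onmy-uba* clone, 94 than the second and 145 than *onmydab*. The alpha chain passed whichever of the 24 arrays was left out (0.63 to 0.84), and had 0.63 without Ctrl replicate 4. With stage III arrays left out its difference was 0.62 and was not called (limma adjusted p = 0.580). With stage as a covariate, the second *onmy-uba* clone passed (0.52, limma adjusted p = 0.0102). The alpha chain then had 0.69 (limma adjusted p = 0.0194) and the first *onmy-uba* clone 0.48 (limma adjusted p = 0.118).

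The 15 other clones of cluster 5 are given for comparison. Among them is *nfkb1*, which is listed again below with the antigen processing clones. All 15 had a lower mean in Fsh than in Ctrl (median difference -0.40) and in Fsh+Tri than in Tri (median -0.59), by which they too were chosen. With trilostane, 9 were above 0 and 6 below, none was called (1.42% of all clones tested were called higher and 0.35% lower), and the median was 0.09. They ranged from -0.25 to 0.47, the highest being *amh*, the anti-Müllerian hormone of Sertoli cells (limma adjusted p = 0.112). The difference between these clones and the MHC clones was not tested.

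**Figure D3:**
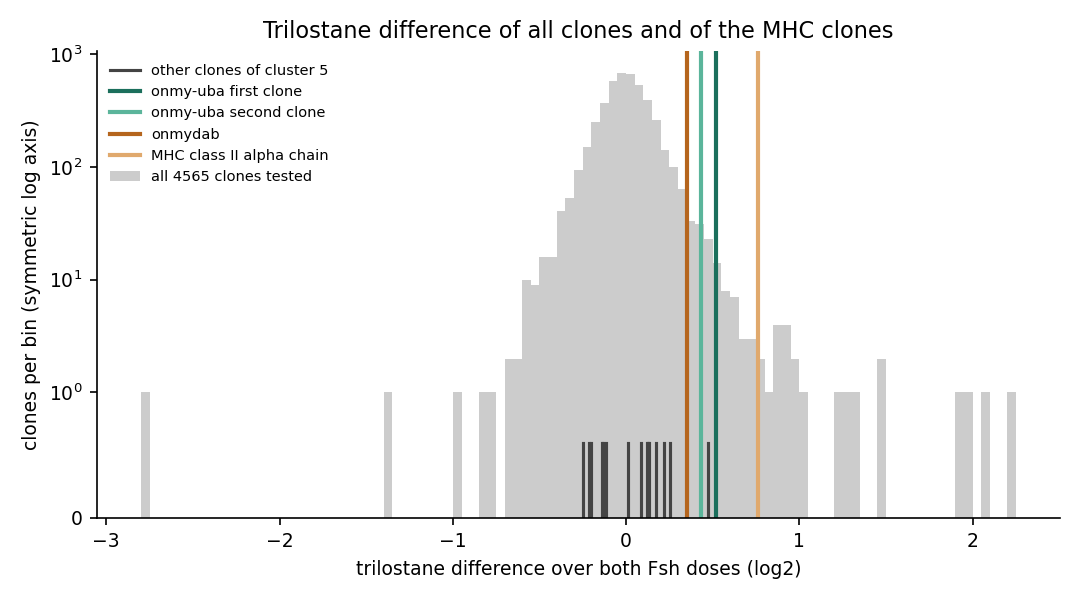
Number of clones (vertical, symmetric log axis) by their trilostane difference over both Fsh doses (horizontal, log2), for the 4565 clones tested. Coloured lines mark the 4 MHC clones, from 0.35 to 0.76, and short ticks the other 15 clones of cluster 5, from -0.25 to 0.47.

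The arrays also carried clones of the machinery that prepares peptides for MHC molecules. They are listed together with a chaperone (*canx*) and a transcription factor subunit (*nfkb1*) as antigen processing clones. Of the 7 clones on this list, all named by the study, none was called higher with trilostane (1.42% of all clones tested). Of the same 7, 1 was called lower (0.35%), and the median difference was -0.05. The one that fell was *ctsl*, cathepsin L, a lysosomal protease (-0.59, SE 0.13, limma adjusted p = 0.00563). Calnexin (*canx*), an endoplasmic reticulum chaperone that helps to fold class I heavy chains, had -0.49 (limma adjusted p = 0.0849). Both cathepsin S clones (*ctss* and *ctssb.1*), whose mammalian counterpart trims the invariant chain of class II molecules, had values near 0 (0.06 and 0.05). The proteasome subunits *psma4* and *psmd1* had -0.05 and -0.19, and *nfkb1*, a transcription factor subunit that takes part in immune gene expression, had 0.17. The 4 MHC clones thus had positive values throughout. Of the 7 processing clones 4 had negative values, near the share of all clones tested, of which 50.4% had positive ones. The difference between the processing and the MHC clones was not tested.

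Culture was examined by the mean of the 4 treatment means minus T0. The T0 arrays were not part of the comparisons that named the clones, whereas the cultured arrays were. The MHC clones did not move in a common direction. The *onmydab* clone was lower after culture by 0.61 (SE 0.19, limma adjusted p = 0.0147), and the second *onmy-uba* clone was higher by 0.53 (SE 0.19, limma adjusted p = 0.0347). Changes were common here, with 15.4% of all clones tested called higher and 14% lower, so 1 of 4 in each direction is close to that background. The alpha chain had a difference of -0.51 (SE 0.24, limma adjusted p = 0.110) and the first *onmy-uba* clone -0.25 (SE 0.22, limma adjusted p = 0.427). The mean over treatments includes the Fsh treatments, whose drop named the clones. Taken by treatment, *onmydab* minus T0 was -0.47 in Ctrl, -0.15 in Tri, -1.10 in Fsh and -0.72 in Fsh+Tri (SE 0.22 each). For the second *onmy-uba* clone these differences were 0.70, 0.89, -0.08 and 0.60 (SE 0.22 each). They are given as a description.

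Both calls leaned on single T0 arrays. Without T0 replicate 2, which held the lowest T0 value of the second *onmy-uba* clone (5.98), that clone had 0.27 (limma adjusted p = 0.395). The decrease of *onmydab* was 0.48 without T0 replicate 1 (limma adjusted p = 0.149) and 0.58 without T0 replicate 2 (limma adjusted p = 0.0619). On stage I-II arrays, which leave 1 T0 array, neither was called (*onmydab* -0.20, second *onmy-uba* clone 0.39).

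Although both *onmy-uba* clones carry the same description, their mean differences between culture and T0 had opposite signs. The first minus the second clone changed by -0.78 from T0 to the cultured arrays, a shift tested after it had been seen (exact permutation test of 3 T0 against 24 cultured arrays, two-sided p = 0.0147 over 2925 arrangements). Leaving out T0 replicate 2 reduced it to -0.38 (exact permutation p = 0.206). Without replicate 1 or 3 it was -0.83 and -1.13 (exact permutation p = 0.0462 and 0.00615). Which transcripts each clone hybridises with was not tested, and class I sequences are known to be alike enough for cDNA probes to share signal.

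On the antigen processing list, 4 of the 7 clones rose in culture and 2 fell, where 15.4% of all clones tested were called higher and 14% lower. Cathepsin L rose by 2.98 (limma adjusted p = 2.19e-13), calnexin by 1.04, *ctssb.1* by 0.91 and *ctss* by 0.61. The proteasome regulatory subunit *psmd1* fell by 1.16 and *nfkb1* fell by 0.58, and *psma4* had 0.22 without being called (limma adjusted p = 0.358). The median of the 7 was 0.61, against -0.38 for the MHC clones and -0.02 over all 4880 clones tested. The study named these 7 clones too by its Fsh comparisons, and the culture mean includes the Fsh treatments. From Ctrl to Fsh their median difference was 0.62 (5 above 0 and 2 below), against -0.71 for the MHC clones. The culture counts and medians contain these opposed Fsh differences and are a description.

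**Figure D4:**
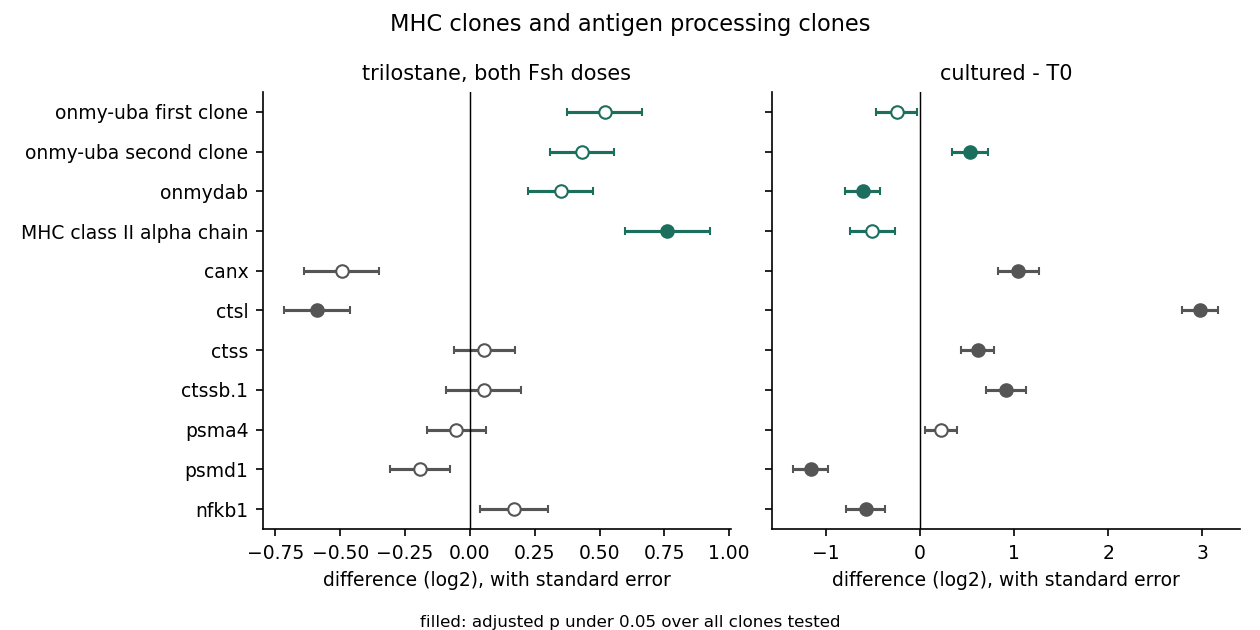
Log2 differences (horizontal axes, points with SE bars) of the 4 MHC clones (green) and 7 antigen processing clones (grey), for trilostane over both Fsh doses (left) and for cultured arrays minus T0 (right). Filled points have a limma adjusted p under 0.05 over all clones tested. The filled points on the left are the class II alpha chain (0.76) and *ctsl* (-0.59), and on the right *ctsl* reaches 2.98.

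Markers of cells that carry class II molecules are given beside the class II clones. The 4 myeloid markers measured here (*ctss*, *ctssb.1*, the carboxypeptidase gene *cpvl* and the transcription factor gene *cebpb*, all named by the study on these arrays and none of them restricted to myeloid cells) had a mean level per array of 7.09 to 7.16 at T0 and 7.06 to 8.46 in Ctrl. It was 8.52 to 8.90 in Fsh, 7.95 to 8.25 in Tri and 8.43 to 8.74 in Fsh+Tri. The study named these markers by the same Fsh comparisons as the MHC clones, so these levels are a description. Both cathepsin S clones are also on the antigen processing list, so the lists are not separate. None of the 4 myeloid markers was called with trilostane (1.42% of all clones tested were called higher and 0.35% lower). All 4 rose in culture, by 0.61 to 2.26 (15.4% of all clones were called higher and 14% lower). The culture mean includes the Fsh treatments, and Fsh was above Ctrl by 0.62 to 0.98 for these 4 markers. Their count in culture is therefore a description too. Ctrl replicate 4 was the lowest Ctrl array for this list too, at 7.06, against a Ctrl median of 8.19. A low Ctrl array was not particular to the myeloid list. The lowest was 7.49 against a median of 8.74 for the Sertoli markers, and 7.91 against 8.62 for antigen processing. The gap was smaller for markers of dividing cells (8.31 against 8.62). Which Ctrl array was lowest on these other lists is not given here. For red blood cells there was 1 marker clone, *rhag*, an ammonium transporter gene that the study also named on these arrays. It was higher with trilostane (0.60, limma adjusted p = 0.000451) and in culture (0.88), which as a single clone does not measure the number of red blood cells. The Sertoli markers ranged from 7.49 to 9.32 in culture, below the T0 values above, and with culture *amh*, *dmrt1* and *inha* fell (differences of -3.36, -1.17 and -1.07) while *cldn11a*, a tight junction gene, rose (1.04). With trilostane *cldn11a* fell (-0.61, limma adjusted p = 0.00195), and the other 3 were not called (*amh* 0.47, *dmrt1* -0.33 and *inha* -0.23). The ribosomal reference clone *rps15* had -0.01 with trilostane and -0.02 in culture. The part that cell composition has in the MHC values was not tested.

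Within treatments, the MHC clones differed in how far they varied together from array to array. After the treatment means were removed, the first *onmy-uba* clone covaried with *onmydab* over the 24 arrays (r = 0.73, adjusted permutation p = 0.00264 over 6 pairs; Spearman's rho = 0.63, adjusted permutation p = 0.00726). Without the 2 arrays farthest from the median, Ctrl replicate 4 and Fsh replicate 6, r was 0.63. Without Ctrl replicate 4 alone it was 0.56 (adjusted permutation p = 0.0333). Taken by treatment, r was 0.90 within Ctrl, 0.22 within Fsh, 0.78 within Tri and 0.80 within Fsh+Tri. A class I heavy chain clone and a class II beta chain clone were thus high and low on the same arrays in 3 of the 4 treatments.

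The first *onmy-uba* clone also covaried with the alpha chain (r = 0.70, adjusted permutation p = 0.00741; rho = 0.58, adjusted permutation p = 0.0123). Here r was 0.46 without the same 2 arrays, and 0.39 without Ctrl replicate 4 alone (adjusted permutation p = 0.110), so the relation rests in part on that array. Within treatments it was 0.85 in Ctrl, 0.97 in Fsh, 0.37 in Tri and 0.31 in Fsh+Tri. The 2 class II chains, whose products pair in 1 molecule, had r = 0.49 (adjusted permutation p = 0.189; rho = 0.30, adjusted permutation p = 0.342), and only 0.10 without Ctrl replicates 4 and 6.

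No covariation passed for the second *onmy-uba* clone. Its r was 0.26 with the first clone (adjusted permutation p = 0.258; rho = 0.22, adjusted permutation p = 0.400), 0.39 with *onmydab* (adjusted permutation p = 0.115; rho = 0.34, adjusted permutation p = 0.236) and -0.02 with the alpha chain (adjusted permutation p = 0.927; rho = -0.08, adjusted permutation p = 0.713). Without the 2 farthest arrays these r were 0.26, 0.27 and -0.01. Clones on an array share its RNA, membrane and normalization, so covariation within treatments cannot be told apart from a property of the array.

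**Figure D5:**
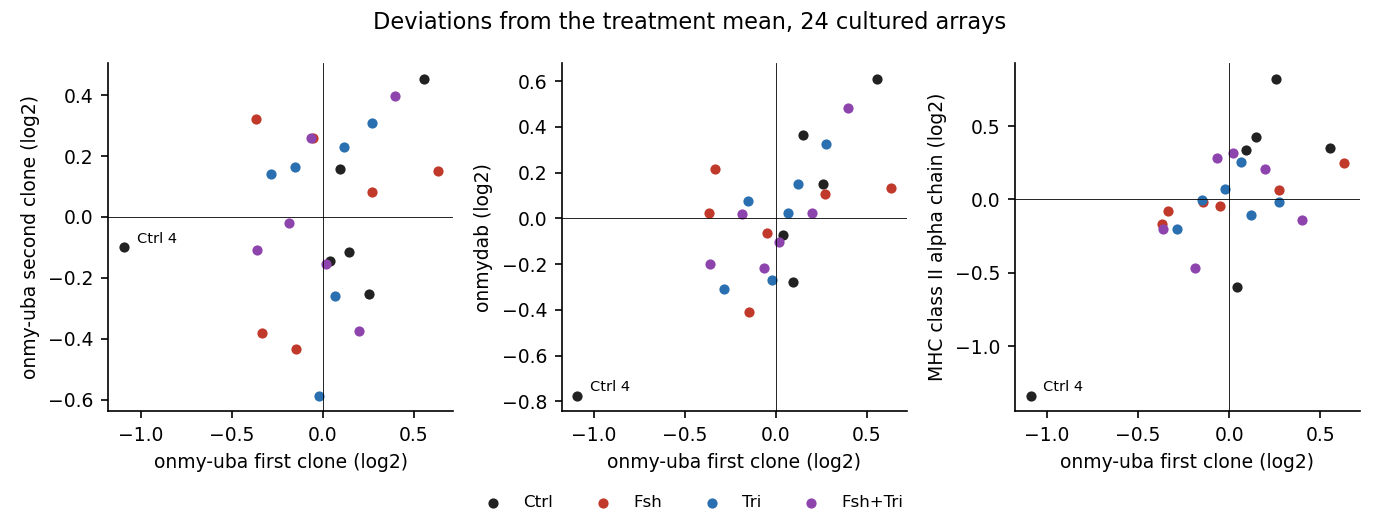
Deviation of each of the 24 cultured arrays from its treatment mean (log2), for the first *onmy-uba* clone (horizontal) against the second clone, *onmydab* and the class II alpha chain (vertical, left to right). Colours give the treatment. Ctrl replicate 4 lies at the lower left for *onmydab* and the alpha chain (r = 0.73 and 0.70) and apart from the rest on the horizontal axis for the second clone (r = 0.26).

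Among 98 named clones compared, those most like each MHC clone in these deviations were mostly different ones. Only *lrrc8* was shared, by the first *onmy-uba* clone and the class II alpha chain. For the first *onmy-uba* clone the most alike were *hsd3b* (r = 0.78), the 3 beta-hydroxysteroid dehydrogenase that trilostane inhibits, *lrrc8* (0.78) and *ctssb.1* (0.72). Among all 4507 clones compared, 20 had a higher r with the first *onmy-uba* clone than *hsd3b*, 24 than *lrrc8* and 57 than *ctssb.1*. Without Ctrl replicate 4 the r of *hsd3b*, *lrrc8* and *ctssb.1* was 0.70, 0.54 and 0.41. For the second *onmy-uba* clone the most alike were *ctsl* (0.61), *gpd1*, a glycerol phosphate dehydrogenase (0.59), and a type I keratin (0.56). These changed to 0.69, 0.59 and 0.61 without that array.

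For *onmydab* they were *sptbn1*, a spectrin of the membrane skeleton (0.70), *cth*, an enzyme of cysteine synthesis (0.70), and a homolog of a transport-secretion protein (0.68), with 0.50, 0.47 and 0.47 without Ctrl replicate 4. For the class II alpha chain, *cebpb* (0.85, and 0.74 without that array) and *lrrc8* (0.77 and 0.48) are given. Over all 4507 clones compared the median r was between 0.01 and 0.06 for the 4 MHC clones, and 1 clone in 20 had an r above a value of 0.47 to 0.63. These correlations over 24 arrays are descriptions, chosen as the highest of many.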

How the data were processed

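Radiolabelled cDNA of each sample was hybridised to nylon membranes carrying trout cDNA clones. The authors divided each spot's signal by the vector signal that measures the spotted cDNA, rescaled it, took log2 and quantile normalized the arrays, and these deposited log2 values were used. In them all 27 arrays share a distribution. The array files hold deposited spot intensities by position only and served to give each array's median intensity. The table held 9216 rows, of which 192 were controls. Clones with values on at least 80% of the 24 cultured arrays (8244) and a group mean at or above the experiment median in at least 1 group were tested, 4565 over the cultured arrays and 4880 with T0. One mean per group was fitted with limma 3.58.1 (R 4.3.3), with Benjamini-Hochberg adjustment over all clones tested and a threshold of 0.05. Covariation used 100000 permutations of arrays within treatments. The fit was tested on simulated data. Named genes were the MHC clones, 7 antigen processing clones, cell type markers, *rps15* and the 3 named clones with the highest r per MHC clone, of which 1 is not reported here. Members and lists were chosen with earlier results of these data known. Sequences and genome positions were not used here. The number of arrays limits the precision. Alternatives are given in the closing section.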

Additional observations from a re-analysis of the deposited data

Results flagged for a closer look

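Among the 16 combinations of MHC clone and treatment with 6 arrays, 2 held an array far from the others (gap to the nearest array over 0.625 of the group's range, which chance gives in about 1 of 20 groups). The first *onmy-uba* clone had 7.07 in Ctrl replicate 4, against 8.20 in the next lowest Ctrl array, and *onmydab* had 9.44 in Fsh+Tri replicate 4, against 8.98 in the next highest.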

How the results depend on the processing

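The trilostane difference kept its sign for all 4 MHC clones, and the call of the alpha chain was lost on stage I-II arrays only (0.62), where 24 clones were called higher and 6 lower. The first *onmy-uba* clone passed after renewed quantile normalization (0.54) or median centring (0.52), and the second with stage as a covariate (0.52). Some other settings moved both clones further from the threshold. Without the filter on level the limma adjusted p was 0.0925 for the first and 0.106 for the second. With the replicate block it was 0.103 and 0.111. Array weights gave 38 clones called lower. Leaving out each array gave 0.41 to 0.58 for the first clone, which passed in 6 of 24 cases, 0.39 to 0.49 for the second, which passed in 4, 57 to 74 clones called higher, and 14 to 34 lower. The highest of these, 34, was without Ctrl replicate 4.

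In culture, the call of *onmydab* was lost on stage I-II arrays (-0.20), with array weights (-0.37) and with the replicate block (-0.56). That of the second *onmy-uba* clone was lost without the filter on level (0.53, limma adjusted p = 0.0524), with stage as a covariate (0.43), on stage I-II arrays (0.39) and with the replicate block (0.47). The first clone turned positive on stage I-II arrays (0.16) and with array weights (0.071). Stage I-II arrays gave 188 clones higher and 99 lower, with the lone T0 array assumed to vary like the other groups. Leaving out each array gave -0.77 to -0.48 for *onmydab*, 0.27 to 0.66 for the second clone, -1.13 to -0.38 for the difference between the *onmy-uba* clones (an alternative chosen after seeing the data) and 453 to 752 clones lower, with 453 without T0 replicate 1. The causes were not tested.

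Leaving out each array gave r from 0.39 to 0.75 for the first *onmy-uba* clone with the alpha chain, and from 0.56 to 0.80 with *onmydab*. For the second it gave 0.27 to 0.47 with *onmydab*, passing without Fsh replicate 3, and -0.12 to 0.081 with the alpha chain. The difference of the Fsh responses turned negative for *onmydab* after renewed quantile normalization (-0.070) and in 5 of the leave-one-out cases (range -0.068 to 0.21), and for the first clone without Ctrl replicate 6 (-0.0056, range to 0.32). Replicate numbers did not pair the samples: same-numbered arrays had correlations of -0.35 to 0.21 over 36 pairs, and 1 of 24 arrays was most like one of its own number. The replicate block changed no trilostane call of the MHC clones (alpha chain 0.76). The alternative from spot intensities was not run, because spots are named by position there.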
